A study of Mus musculus with 143 samples.

Results

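RNA polymerase II (Pol II) and the factors that carry it through elongation were followed through 41 mouse genes, measured in single oocytes across stage and genotype. They were chosen by name, from a list drawn up with earlier results of these data known. The list holds 12 Pol II subunits, 3 genes of DSIF and SPT6, 2 of FACT, 3 of the TFIIH kinase, 3 of P-TEFb, 3 of the CDK12 and CDK13 kinases with cyclin K, 4 of NELF, 4 of the super elongation complex, 2 proteins of the 7SK particle and 5 of the PAF1 complex. All 41 were found among 55573 gene IDs of the poly(A) files and 55487 of the RiboMinus files, and 41 of 41 passed the filter on low counts in each of 17 comparisons.

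The labels give control oocytes and oocytes of mutant mice made with CRISPR/Cas9, in which Dis3 (Dis3 cKO), Exosc10 (Exosc10 cKO) or the pair (dcKO) was conditionally knocked out. Both encode RNA-degrading enzymes that work with the exosome, and the labels name neither the promoter that drives a recombinase nor a strain. Poly(A) RNA was sequenced from single germinal vesicle (GV) oocytes, from oocytes cultured for 3 h (GV3h) and from metaphase II (MII) eggs taken after superovulation. Each stage held 8 control libraries, with 15, 16 and 16 Dis3 cKO libraries. Total RNA after removal of ribosomal RNA (RiboMinus) was sequenced from 8 single oocytes per group. These groups were GV control and GV Dis3 cKO, called adult here because the CUT&Tag titles call GV oocytes so, and control, Dis3 cKO, Exosc10 cKO and dcKO of a stage labelled p20. Pol II CUT&Tag (antibody labelled pols2s5) on pooled oocytes gave 3 libraries each of adult control, p20 control and adult Dis3 cKO.

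Gene counts ran from 4843964 to 15412200 per library in 71 poly(A) libraries and from 8492102 to 35429028 in 48 RiboMinus libraries. Levels are given as CPM (gene counts scaled to a fixed library total, with TMM scaling), which sets each gene against the bulk of the other genes. Dis3 fell by 2.18 to 3.63 on the log2 scale in the 5 comparisons of Dis3 cKO with control, and by 2.25 in dcKO. Exosc10 fell by 5.22 in Exosc10 cKO, fell by 4.01 in dcKO and fell by 0.53 in GV3h Dis3 cKO (adjusted p = 0.00259). The 13 oocyte markers had a median over 1 CPM in every group. Granulosa and cumulus markers summed to at most 229.9 CPM, theca and stroma markers to at most 37.8 CPM, and blood and immune markers to at most 7.56 CPM. The median theca and stroma sum was higher in Dis3 cKO than in control in poly(A) libraries, at 7.12 against 3.17 CPM at GV, 8.7 against 2.62 CPM at GV3h and 6.45 against 2.05 CPM at MII, and in adult RiboMinus libraries, at 4.42 against 2.39 CPM. Star, a steroid synthesis gene, had the highest median of the 7 markers in each of these Dis3 cKO groups, with 4.95 against 0.928 CPM in control at GV, 7.44 against 1.01 at GV3h, 4.83 against 1.06 at MII and 2.93 against 0.556 in adult RiboMinus. Most other markers of this list did not follow Star. Dcn was lower in poly(A) Dis3 cKO, at medians of 0.632 against 1.46 CPM at GV, 0.453 against 0.991 at GV3h and 0.0974 against 0.262 at MII. Pdgfra was slightly higher there, with medians up to 0.534 CPM. Cyp17a1, Col1a1, Col3a1 and Acta2 had medians of 0 CPM in these Dis3 cKO groups. The median granulosa and cumulus sum in Dis3 cKO was 104.4 against 136.7 CPM in control at GV, 82.5 against 92.3 at GV3h and 68.8 against 100.6 at MII. In adult RiboMinus it was 120.6 against 110.5 CPM. At p20 it was 140.9 CPM in control, 177.5 in Dis3 cKO, 164.5 in Exosc10 cKO and 174.8 in dcKO. Nr5a2 had the highest median of this list in each p20 group, at 75.02, 102.6, 97.16 and 127 CPM in that order. Cyp19a1 went the other way, with medians of 27.4, 19, 22.82 and 3.62 CPM. In poly(A) Dis3 cKO the Cyp19a1 median was also lower, at 14.12 against 34.78 CPM at GV. It was 12.02 against 41.78 at GV3h and 24.36 against 52.95 at MII. Inha was lower at GV as well, at 5.129 against 21.44 CPM, while Nr5a2 was slightly higher at every poly(A) stage. The sums thus rest largely on a few genes of the list. The part of the marker lists in the results was not tested. MII Dis3 cKO library 15 stood apart, with 14.4 gene counts per ERCC spike-in count against a group median of 53.3, and counts or calls that changed without it are given beside the results. The labels do not say which oocytes share an animal, so p-values measure the spread between single oocytes. In RiboMinus titles each group carries 2 tags of 4 libraries, and sums per tag were tested as well.

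Pol II makes messenger RNA with a core of subunits, of which POLR2A is catalytic and carries the C-terminal domain that kinases phosphorylate. CDK7 of TFIIH acts on that domain at initiation. DSIF and NELF then hold the enzyme close to the start until P-TEFb (CDK9 with a cyclin T) releases it. HEXIM1 and LARP7 are proteins of the 7SK particle, which keeps P-TEFb inactive, and AFF and ELL proteins form the super elongation complex that brings active P-TEFb to genes. SPT6, FACT and the PAF1 complex travel with Pol II through chromatin, and CDK12 and CDK13 with cyclin K phosphorylate it further along the gene. Fully grown oocytes are known to be largely silent in transcription and to live on stored RNA.

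RefSeq promoter sequences of the build GRCm38.p6 were matched for 34 of the 41 genes; those with no entry were Polr2d, Polr2g, Polr2k, Ccnh, Nelfcd, Nelfe and Ctr9. The 100 bases before the start are shown for 6 genes called in p20 dcKO oocytes, 3 that rose (Hexim1, Polr2h, Cdk9) and 3 that fell (Larp7, Ccnt2, Polr2i). They are the 3 of largest change in each direction whose window lies outside their own annotated span, so they were chosen after their values were seen. Capitals mark a GC box (GGGCGG or CCGCCC) or a CCAAT box (CCAAT or ATTGG), and each line reads 5′ to 3′ on the strand of the gene.
Hexim1, chr11:103116225-103116324, plus strand: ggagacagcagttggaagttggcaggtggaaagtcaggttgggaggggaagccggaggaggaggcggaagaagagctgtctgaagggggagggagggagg
Polr2h, chr16:20717726-20717825, plus strand: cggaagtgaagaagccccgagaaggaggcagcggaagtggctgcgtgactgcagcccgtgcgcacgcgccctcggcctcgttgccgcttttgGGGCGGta
Cdk9, chr2:32712785-32712884, minus strand: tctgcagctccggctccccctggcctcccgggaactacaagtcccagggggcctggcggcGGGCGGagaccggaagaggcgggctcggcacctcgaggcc
Larp7, chr3:127553350-127553449, minus strand: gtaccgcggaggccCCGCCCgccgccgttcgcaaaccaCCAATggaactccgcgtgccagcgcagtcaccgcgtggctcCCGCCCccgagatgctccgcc
Ccnt2, chr1:127774064-127774163, plus strand: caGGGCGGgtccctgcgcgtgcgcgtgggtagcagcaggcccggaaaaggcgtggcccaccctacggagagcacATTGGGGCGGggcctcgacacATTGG
Polr2i, chr7:30231974-30232073, plus strand: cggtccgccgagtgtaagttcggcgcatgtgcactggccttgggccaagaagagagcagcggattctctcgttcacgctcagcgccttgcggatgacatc

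A GC box on either strand stood in this window in 22 of 34 members (64.7%), against 27.3% of 27025 genes with a promoter sequence. It was present in 9 of 11 members that rose in dcKO and in 8 of 13 with a sequence that fell, so genes of both directions carried it. In Ccnt2 one of its copies overlaps a CCAAT box read on the other strand. CCAAT stood in 20.6% of members and 21.6% of all genes, and the TATA box letters (TATAAA or TTTATA) in 2.94% and 6.57%, with Polr2a the 1 member that holds them. A match of letters is a description of the sequence and not a site of binding.

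**Figure D1:**
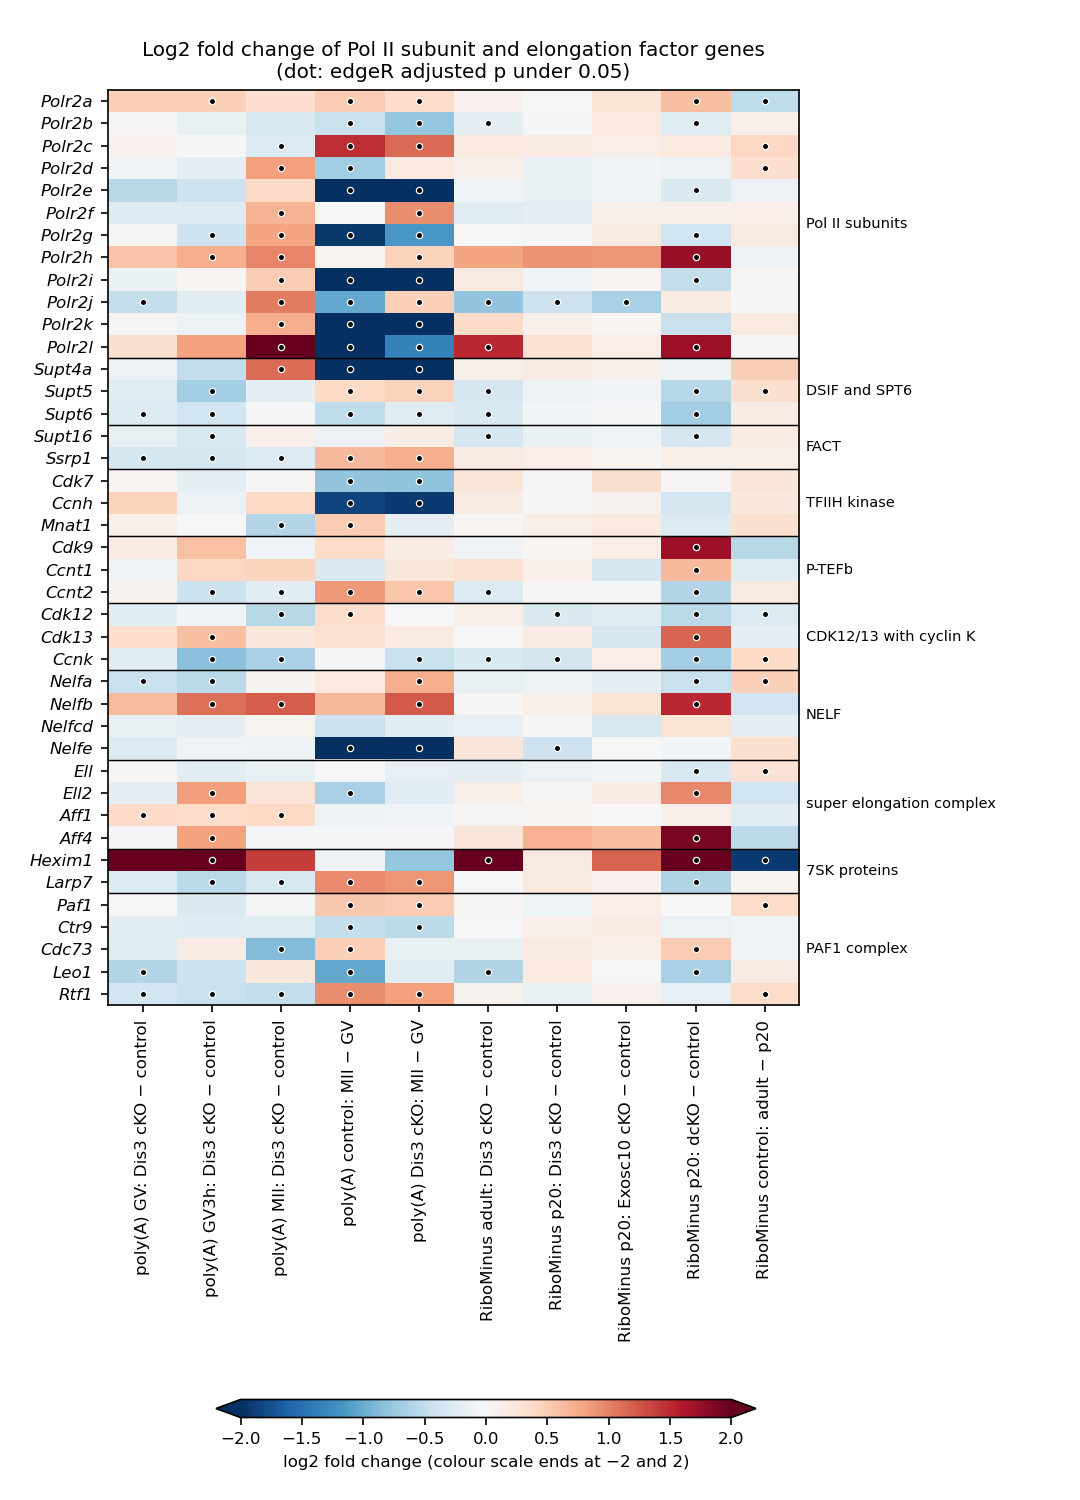
Log2 fold change of the 41 genes (rows, grouped by role) in 10 comparisons (columns). Blue is lower and red higher in the first-named group, and a dot marks an edgeR adjusted p under 0.05; the columns with most dots are MII against GV (27 members in control and 26 in Dis3 cKO) and p20 dcKO against control (25 members).

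In GV oocytes, loss of Dis3 was accompanied by lower poly(A) levels of 6 members and a higher level of 1. The 6 were Leo1 and Rtf1 of the PAF1 complex, the Pol II subunit Polr2j, the NELF subunit Nelfa, Supt6 and the FACT subunit Ssrp1, and the 1 was Aff1, a scaffold of the super elongation complex. Across all 17389 genes tested, 13.6% were higher and 8.33% lower, against 2.44% and 14.6% of members. The median over members was −0.07 on the log2 scale, beside 0.04 over all genes.

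Nelfa read 97.8 CPM at the lowest, 160 at the median and 180 at the highest in control, and 90.3, 105 and 129 in Dis3 cKO. The groups overlapped in range, with 15 of 15 knockout libraries under the control median, and Nelfa fell by 0.45 (SE 0.10, edgeR adjusted p = 0.000621). Polr2j ranged from 307 over a median of 377 to 452 CPM in control and from 187 over 265 to 363 CPM in Dis3 cKO, a fall by 0.47 (SE 0.15, adjusted p = 0.0126). Leo1, which helps to load the PAF1 complex, had medians of 76.3 and 44.4 CPM, with ranges of 58.4 to 93.9 and 36.8 to 111 that overlapped, and fell by 0.58 (SE 0.20, adjusted p = 0.0236). Aff1 went the other way, from 56.7, 91.0 and 105 CPM to 95.0, 110 and 136 CPM, a rise of 0.38 (SE 0.12, adjusted p = 0.0178). Hexim1 was close to the detection limit at this stage, with medians of 0.0491 and 0.538 CPM, and did not pass the edgeR test; DESeq2 called it, along with Polr2a, Polr2h and Ccnh. Rtf1, Polr2j and Leo1 were not called with title numbers 1 to 8. Without MII library 15 the 7 calls remained and Polr2e, Polr2a and Ccnh were called as well, beside 24% of all genes. With ERCC scaling, which moved the median of all genes to −0.23, 0 members were higher and 12 lower, beside 7.27% and 13.3% of all genes. At an unadjusted p under 0.05, 1 was higher with that scaling. DESeq2 called 5 higher and 6 lower with its own scaling, beside 14% and 6.94% of all genes.

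After 3 h of culture 18 members differed between Dis3 cKO and control oocytes, with 8 higher and 10 lower in Dis3 cKO. This comparison is between genotypes at GV3h and does not test the culture. Of all genes 22.9% were higher and 15.7% lower, against 19.5% and 24.4% of members. The 8 that rose were Hexim1, Nelfb, Ell2, Aff4, Polr2h, Cdk13, Polr2a and Aff1, so 3 of the 4 super elongation complex genes rose. The 10 that fell were Ccnk, Supt5, Nelfa, Larp7, Rtf1, Ccnt2, Polr2g, Supt6, Ssrp1 and Supt16, which take in both FACT genes and, of the DSIF and SPT6 group, Supt5 and Supt6. With ERCC scaling neither FACT gene, nor Supt6, nor Aff1 was called.

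Ccnk, the cyclin of CDK12 and CDK13, read 41.3, 54.0 and 65.9 CPM (lowest, median and highest) in control and 18.9, 29.2 and 39.3 CPM in Dis3 cKO. Its groups did not overlap, and it fell by 0.84 (SE 0.15, adjusted p = 3.79e-06). Supt5, the large DSIF subunit, went from 73.2, 82.3 and 97.8 CPM to 36.9, 51.2 and 64.5 CPM, again with no overlap, and fell by 0.69 (SE 0.12, adjusted p = 4.04e-06). Larp7 followed with 54.8, 59.1 and 69.5 CPM against 31.2, 42.2 and 51.9 CPM, a fall by 0.54 (SE 0.11, adjusted p = 0.000109). The Larp7 groups did not overlap either. The share of all genes separated in this way was not counted, and 38.6% of all genes were called. Nelfb, a NELF subunit, read 5.65, 12.4 and 17.7 CPM in control and 17.6, 24.3 and 40.6 CPM in Dis3 cKO, overlapping only at the edge, and rose by 1.10 (SE 0.28, adjusted p = 0.0011). Ell2 rose by 0.84 (SE 0.22, adjusted p = 0.00136), from 10.4, 13.7 and 18.4 CPM to 14.3, 24.2 and 39.7 CPM. Hexim1 rose by 2.11 (SE 0.81, adjusted p = 0.0315) from very low levels, 0, 0.196 and 0.761 CPM against 0.15, 1.11 and 2.45 CPM. It was not called with no filter or with the replicate block on title numbers 1 to 8. Polr2h was not called with those numbers without the block. With ERCC scaling 4 rose and 7 fell, beside 17.5% and 10.6% of all genes. All 11 were among the 18, and Supt6, Polr2a, Ssrp1, Aff1, Supt16, Cdk13 and Hexim1 were no longer called. Without MII library 15, which shares the fit, 23 were called, the 18 among them, beside 41.3% of all genes, and a fit of only these groups called 29, beside 54.6% of all genes.

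For the 3 h of culture by itself the number of calls in control oocytes depended on the fit. With all 6 groups in the fit edgeR called 0 higher and 0 lower, with 2 and 9 at an unadjusted p under 0.05 and 0 by DESeq2, while 1.14% of all genes were higher and 1.56% lower. Leaving out MII library 15, which shares the fit, made 3 calls, all lower (Cdk12, Rtf1 and Polr2f), beside 2.17% of all genes lower, and a fit of only the GV and GV3h control groups made 10, 3 higher and 7 lower (Ell2, Cdk12, Supt5, Paf1, Polr2i, Polr2f, Polr2j, Polr2k, Aff4 and Ell), where 7.66% of all genes were higher and 7.45% lower. In Dis3 cKO oocytes 1 member was higher (Nelfb, by 1.07, SE 0.22, adjusted p = 0.000402) and 10 were lower, beside 7.42% and 9.88% of all genes. The lower ones were led by the small subunit Polr2k (−0.68, SE 0.19, adjusted p = 0.00645), Ccnh of the TFIIH kinase (−0.57, SE 0.15, adjusted p = 0.00351) and Ccnk (−0.54, SE 0.13, adjusted p = 0.00138). Polr2k medians were 16.5 CPM at GV and 10.1 CPM at GV3h in Dis3 cKO, with ranges of 9.76 to 22.9 and 5.01 to 14.1 CPM that overlapped. Ccnh ranged from 42.5 to 96.8 CPM and then from 25.7 to 62.7 CPM, and Ccnk from 28.5 to 76.5 CPM and then from 18.9 to 39.3 CPM, so these overlapped too. Ccnh and Polr2c were not called with title numbers 1 to 8, nor were Ccnk, Ccnh, Ccnt2 and Polr2c with the replicate block on those numbers. With ERCC scaling this step had 19 members higher and 0 lower (0 lower also at an unadjusted p under 0.05), beside 36.1% and 0.949% of all genes. The median of all genes then stood at 0.47, and Ccnt2, Larp7, Polr2c, Polr2f, Supt16 and Polr2g of the 10 lower members turned. The difference between the genotypes in this step passed the test for 1 member, Ccnt2 (−0.50, SE 0.12, adjusted p = 0.0157), with 0 higher, beside 1.37% of all genes higher and 0.667% lower; 2 were higher at an unadjusted p under 0.05 and DESeq2 called 1, and Ccnt2 itself was not called with ERCC scaling, with title numbers 1 to 8 or with the replicate block on them. Without library 15, 14 members were called in the Dis3 cKO step, the 11 among them, beside 20.7% of all genes.

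Between GV oocytes and MII eggs of control, 16 members fell and 11 rose, beside 35.8% and 22.7% of all genes (39.0% and 26.8% of members). Of the 12 Pol II subunits 8 fell, 2 rose (Polr2a and Polr2c) and 2 were not called (Polr2f and Polr2h), and 5 of the 8, Polr2i, Polr2l, Polr2e, Polr2k and Polr2g, fell by 1.93 or more on the log2 scale. Supt4a, the small DSIF subunit, fell by 3.39, Nelfe fell by 2.29 and Ccnh fell by 1.85. These are poly(A) levels relative to other genes. Capture with oligo-dT beads cannot tell a shorter tail from less RNA. With ERCC scaling the median of all genes moved to −2.12 and 40 of 41 members were lower with 0 higher, also at an unadjusted p under 0.05. Of all genes 87.5% were lower and 0.334% higher with that scaling.

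Polr2i read 98.5, 112 and 142 CPM in GV control oocytes and 5.9, 6.89 and 10.3 CPM in MII control eggs. No library of one stage came near the other, and the fall was 3.92 (SE 0.18, adjusted p = 1.53e-30). Polr2l, already low at GV with 4.13, 5.81 and 8.6 CPM, was at 0, 0.162 and 2.46 CPM at MII and fell by 3.72 (SE 0.48, adjusted p = 4.27e-10). Supt4a went from 19.4, 31.0 and 45.0 CPM to 1.72, 2.88 and 4.74 CPM and fell by 3.39 (SE 0.51, adjusted p = 2.31e-08). All 3 were separated by every library, and they were named as the largest falls. The share of all genes separated in this way was not counted, and 58.5% of all genes were called. DESeq2 gave Supt4a no adjusted p in the poly(A) fits, so its calls have no check by that tool. The core subunit Polr2c did the opposite, with 292, 350 and 519 CPM at GV and 856, 987 and 1262 CPM at MII, a rise of 1.48 (SE 0.13, adjusted p = 4.42e-16). Larp7 rose by 0.94 (SE 0.13, adjusted p = 8.31e-09) from 53.1, 65.2 and 87.4 CPM to 107, 131 and 142 CPM, and Rtf1 of the PAF1 complex by 0.94 (SE 0.14, adjusted p = 2.19e-08) from 48.5, 65.0 and 93.4 CPM to 96.4, 130 and 157 CPM. These 3 rises were relative to the other genes and turned with ERCC scaling, to −0.38 for Polr2c and −0.91 for Larp7 and for Rtf1. Further members that fell were Nelfe, Ccnh, Leo1, Polr2j, Cdk7, Polr2d, Ell2, Supt6, Ctr9 and Polr2b, and further members that rose were Ccnt2, Ssrp1, Paf1, Polr2a, Mnat1, Cdc73, Supt5 and Cdk12. Of these Ell2, Ctr9 and Polr2b were not called with no filter, nor was Ell2 with only the groups compared.

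Dis3 cKO oocytes went through the same step with 13 members lower and 13 higher, beside 38.5% and 24.8% of all genes. Of the calls, 20 were shared in direction with control, 74.1% of the 27 in control and 76.9% of the 26 in Dis3 cKO, where over all genes the shared calls were 79.7% and 73.7% of the 2 lists. Polr2j was called in opposite directions. Its call in Dis3 cKO, with those of Supt6 and Polr2h, was lost with title numbers 1 to 8 and with the replicate block on them. Polr2i fell by 3.28 (SE 0.12, adjusted p = 4.4e-36), with 69.9, 110 and 123 CPM at GV and 4.57, 10.3 and 20.5 CPM at MII. Polr2k fell by 2.41 (SE 0.20, adjusted p = 5.3e-18), from 9.76, 16.5 and 22.9 CPM to 0.275, 3.23 and 7.36 CPM. Polr2e, a subunit that Pol II shares with the other nuclear polymerases, fell by 2.22 (SE 0.20, adjusted p = 6.71e-16), from 39.0, 49.5 and 60.0 CPM to 3.06, 8.29 and 47.3 CPM. Polr2i and Polr2k had no library in common range, and Polr2e overlapped through its highest MII library. Nelfb (1.23, SE 0.22, adjusted p = 1.97e-06), Polr2c (1.13, SE 0.09, adjusted p = 1.35e-17) and Polr2f (0.94, SE 0.12, adjusted p = 5.59e-10) rose most. Nelfb ranged from 6.37 to 17.8 CPM at GV and from 6.32 to 51.2 CPM at MII, Polr2c from 252 to 485 CPM and then from 499 to 1286 CPM, and Polr2f from 28.9 to 65.7 CPM and then from 46.5 to 233 CPM. With ERCC scaling the median of all genes was −1.50 and 39 members were lower and 0 higher (0 also at an unadjusted p under 0.05), beside 82.3% and 1.31% of all genes. Polr2c and Polr2f turned to −0.17 and −0.37. Without library 15, 14 members were higher and 15 lower, beside 25.2% and 39.7% of all genes; Polr2h was lost and Nelfcd, Polr2d, Supt16 and Ell were gained.

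**Figure D2:**
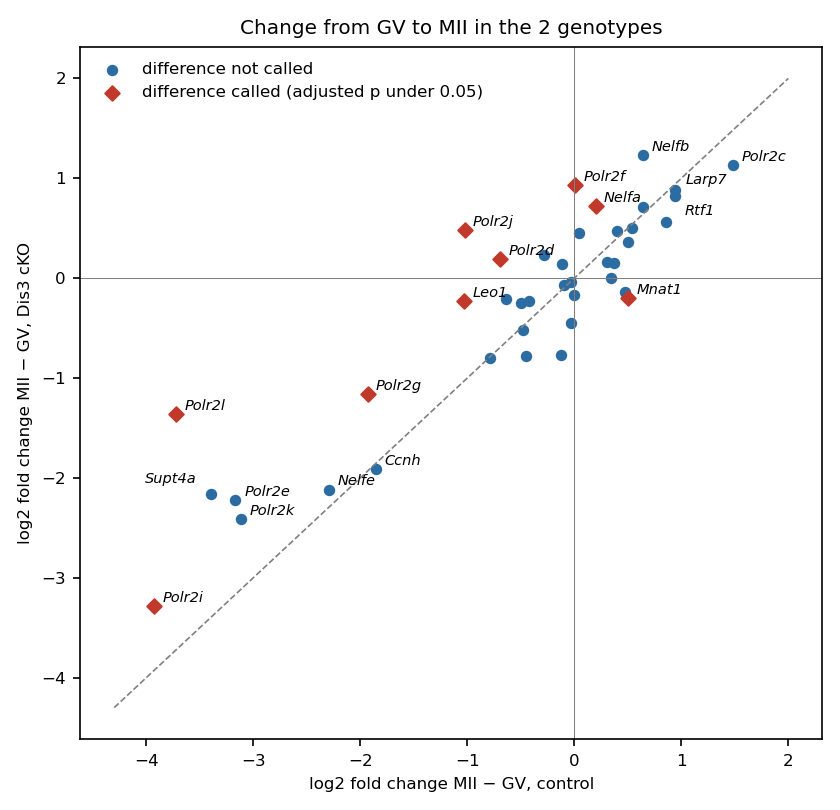
Log2 fold change from GV to MII in control (x axis) and in Dis3 cKO (y axis), 1 point per gene and a dashed line of equal change. Red diamonds are the 9 members whose change differed between the genotypes; 8 lie above the line, with Polr2l (−3.72 and −1.36) and Polr2j (−1.03 and 0.48) farthest from it, and Mnat1 lies below.

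In MII eggs 8 of the 12 Pol II subunits were higher in Dis3 cKO than in control, 1, Polr2c, was lower and 3 were not called, with a median over the 12 of 0.70, beside 0.16 over all genes. Over all members 11 were higher and 9 lower (26.8% and 22.0%), and over all genes 27.3% and 14.8%. The higher ones were Polr2l, Nelfb, Supt4a, Polr2j, Polr2h, Polr2d, Polr2g, Polr2k, Polr2f, Polr2i and Aff1. The lower ones were Cdc73, Ccnk, Mnat1, Cdk12, Rtf1, Larp7, Ssrp1, Polr2c and Ccnt2. With ERCC scaling, which moved the median of all genes to 0.52, 17 members were higher and 0 lower (1 at an unadjusted p under 0.05), beside 37.6% and 4.31% of all genes. The lower calls therefore hold only relative to the other genes, and Ccnt2, Ssrp1 and Polr2c turned. A fit of only the groups compared called 15 members, without Polr2i, Polr2k, Polr2c, Supt4a and Aff1, beside 30.6% of all genes. Supt4a, Ccnt2 and Ssrp1 were not called with title numbers 1 to 8, and with the replicate block on those numbers Polr2i was not called either.

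Polr2l read 0, 0.162 and 2.46 CPM in control eggs and 0.358, 2.71 and 8.66 CPM in Dis3 cKO eggs. The ranges overlapped through 2 control eggs, at 0.431 and 2.46 CPM, 16 of 16 knockout eggs lay above the control median, and the rise was 2.68 (SE 0.44, adjusted p = 9.35e-07). Polr2j, with 126, 142 and 323 CPM against 189, 323 and 689 CPM, rose by 1.03 (SE 0.15, adjusted p = 8.74e-08) with 16 of 16 above the control median. Polr2d went from 266, 343 and 481 CPM to 139, 663 and 903 CPM, a rise of 0.82 (SE 0.15, adjusted p = 7.71e-06), and 15 of 16 lay above the control median. The medians of Polr2d and Polr2j in these eggs lay within the GV control ranges, 488 to 672 CPM and 307 to 452 CPM. Polr2l at MII stayed below its GV level in both genotypes. Nelfb rose by 1.21 (SE 0.28, adjusted p = 0.000315), from 2.8, 12.6 and 23.9 CPM to 6.32, 29.6 and 51.2 CPM. Supt4a was called higher by 1.11 (SE 0.44, adjusted p = 0.0344), but this call rested on MII library 15 alone, at 70.4 CPM. Medians were 2.88 CPM in control and 2.87 CPM in Dis3 cKO, 7 of 16 knockout eggs lay above the control median, and without library 15 the value was −0.26 (adjusted p = 0.291). Without it 19 of the 20 calls remained, and Ctr9, Ccnh and Ell were called as well, beside 43.3% of all genes.

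Cdc73, a PAF1 complex subunit, was lower by 0.86 on the log2 scale (−0.86, SE 0.16, adjusted p = 1.53e-05), with 10.6, 18.7 and 24.2 CPM in control and 5.05, 9.64 and 18.6 CPM in Dis3 cKO eggs. Its ranges overlapped, with 16 of 16 knockout eggs under the control median. Ccnk fell by 0.64 (SE 0.15, adjusted p = 0.000286), from 38.5, 48.4 and 63.2 CPM to 22.5, 30.1 and 51.9 CPM. Mnat1, the assembly factor of the TFIIH kinase, fell by 0.58 (SE 0.12, adjusted p = 4.6e-05), from 34.9, 50.1 and 61.6 CPM to 21.0, 30.6 and 45.7 CPM.

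**Figure D3:**
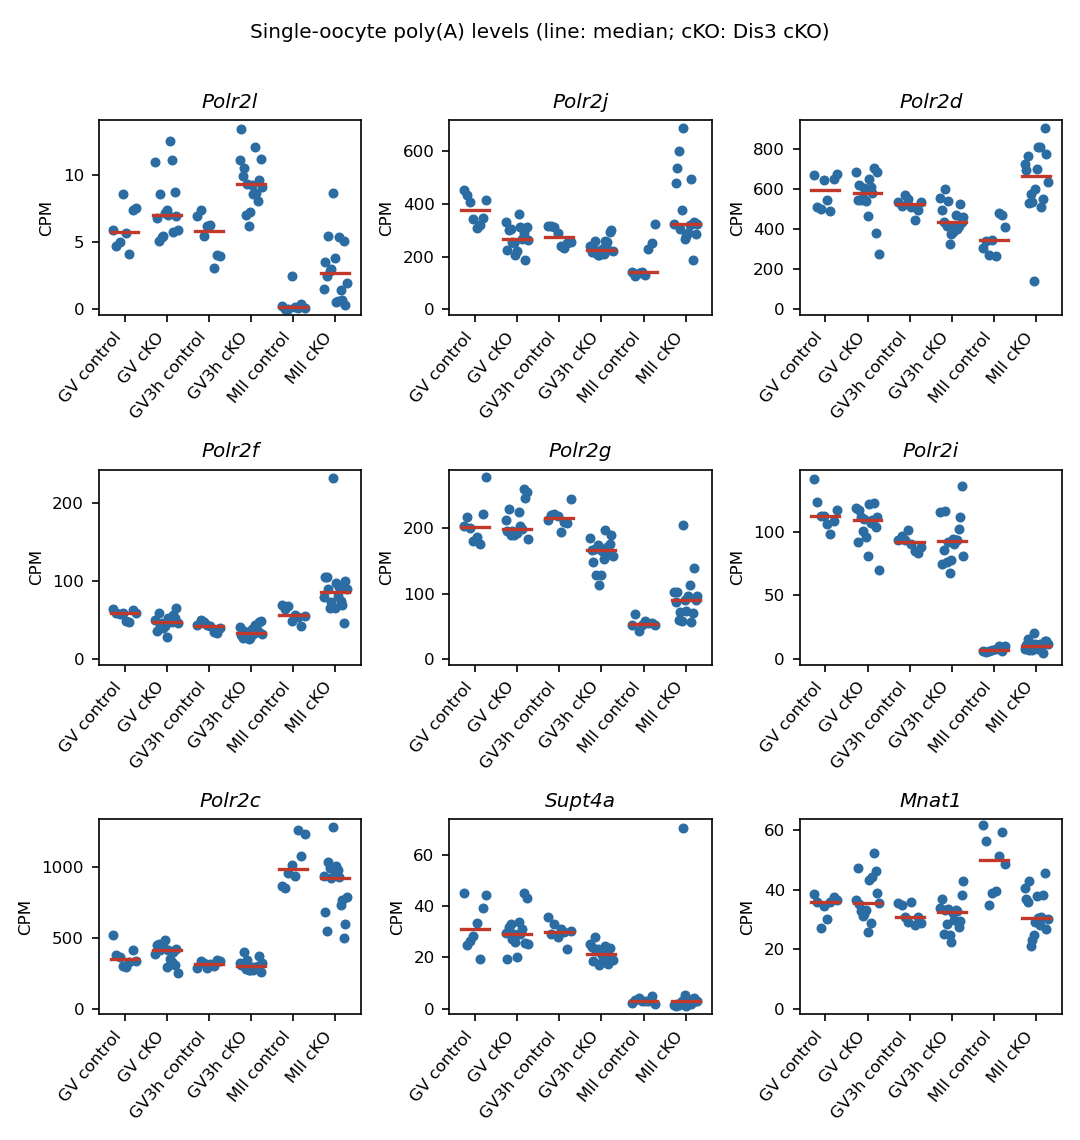
Poly(A) CPM of 9 members in every library of the 6 groups (points) with the group median (red line). Polr2l, Polr2i and Supt4a drop at MII in both genotypes, Polr2j and Polr2d have lower medians at MII than at GV in control but not in Dis3 cKO, and the single high Supt4a point at 70.4 CPM is MII Dis3 cKO library 15.

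The difference in the Dis3 effect between MII and GV was itself tested. It was positive for 8 members and negative for 1, beside 9.28% and 3.88% of all genes (19.5% and 2.44% of members). The 8 were 6 Pol II subunits, Polr2l (2.36, SE 0.55, adjusted p = 0.00163), Polr2j (1.50, SE 0.21, adjusted p = 2.47e-07), Polr2f (0.93, SE 0.21, adjusted p = 0.00118), Polr2d, Polr2g and Polr2i, together with Leo1 and Nelfa. Polr2f read 47.6, 58.9 and 64.5 CPM in GV control, 28.9, 47.4 and 65.7 CPM in GV Dis3 cKO, 42.1, 56.2 and 69.8 CPM in MII control and 46.5, 85.5 and 233 CPM in MII Dis3 cKO. The last group had the highest median and overlapped the others. Mnat1 was the negative one (−0.70, SE 0.17, adjusted p = 0.00283), and with ERCC scaling it stood at 0.014 with the median of all genes at 0.68. That scaling gave 19 members positive and 0 negative, the 0 also at an unadjusted p under 0.05, beside 29.4% and 0.696% of all genes. All 9 calls remained without library 15. Leo1 was not called with DESeq2 size factors, with no filter, with DESeq2 or with only the groups compared. Polr2i was lost with only the groups compared and, like Polr2l, with title numbers 1 to 8, and Nelfa with only the groups compared.

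In adult GV oocytes read by RiboMinus, 8 members were lower and 2 higher in Dis3 cKO, beside 12.4% and 15.7% of 15334 genes (19.5% and 4.88% of members). The lower ones were Polr2j, Leo1, Supt16, Supt5, Supt6, Ccnk, Ccnt2 and Polr2b, and the higher ones Hexim1 and Polr2l. Leo1, Polr2j and Supt6 were also called, in the same direction, in the poly(A) GV libraries, which share no library with these. They make up 42.9% of the 7 calls there and 30.0% of the 10 here, beside 46.7% and 41.3% over all genes, so nothing particular to the members is read from them. In the poly(A) GV fit Polr2j and Leo1 were not called with title numbers 1 to 8, nor Polr2j with the replicate block on those numbers.

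Polr2j read 41.5, 52.8 and 56.8 CPM in control and 24.6, 28.1 and 35.3 CPM in Dis3 cKO. The groups did not overlap, and Polr2j fell by 0.79 (SE 0.10, adjusted p = 1.38e-05). Leo1 went from 81.5, 84.5 and 94.8 CPM to 40.5, 54.1 and 66.5 CPM, without overlap, and fell by 0.60 (SE 0.09, adjusted p = 8.66e-05). Supt16, the large FACT subunit, fell by 0.35 (SE 0.07, adjusted p = 0.001), with 190, 222 and 249 CPM against 145, 174 and 204 CPM. Hexim1 was at 0, 0.315 and 0.665 CPM in control and 0.699, 1.84 and 10.5 CPM in Dis3 cKO and rose by 3.34 (SE 0.70, adjusted p = 0.0016). The groups did not overlap, but the level was higher in tag AM1713, with a tag median of 3.19 CPM against 0.976 CPM for AM1757, and without AM1713 the rise was 1.86 (adjusted p = 0.0826). Polr2l rose by 1.51 (SE 0.55, adjusted p = 0.049) from 0.268, 0.497 and 1.5 CPM to 0.155, 1.59 and 4.06 CPM, and without AM1713 by 0.25 (adjusted p = 0.831). Without that tag 6 members were called, beside 17.6% of all genes, and without either control tag 5, beside 13.7% and 15.5%. With counts summed per tag edgeR called 0 higher and 0 lower, with 1 and 5 at an unadjusted p under 0.05. That fit called 0 of 20190 genes, so its 0 says nothing particular to the members. Supt5, Ccnt2 and Polr2b were not called without AM1758, AM1759 or AM1713, nor were Ccnk and Polr2l without AM1758 or AM1759. With no filter Polr2b and Polr2l were lost, and Polr2l also with ERCC scaling. DESeq2 on single libraries called 3 higher and 8 lower, beside 15.4% and 10.4% of all genes. With ERCC scaling the median of all genes stood at −0.52, and 1 member was higher and 20 lower, beside 4.56% and 40.1% of all genes.

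**Figure D4:**
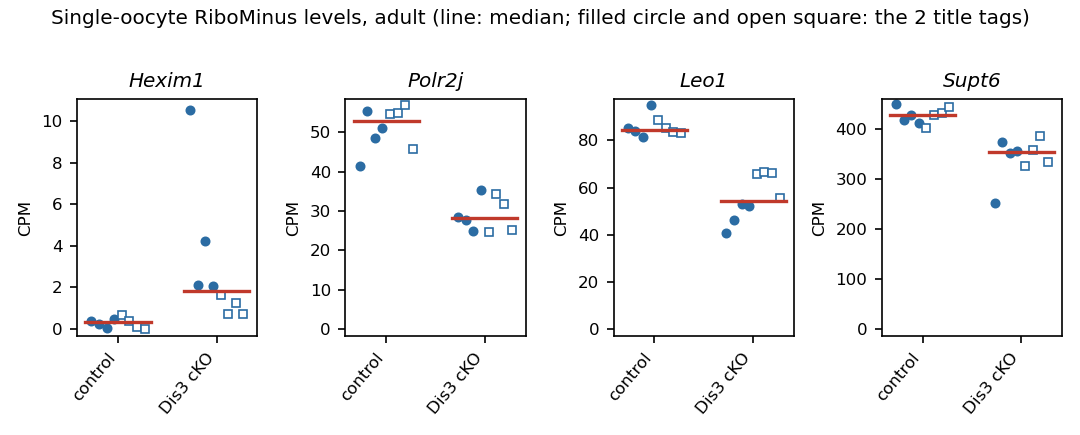
RiboMinus CPM of 4 members in the 8 adult control and 8 adult Dis3 cKO oocytes (points), with group medians (red lines) and the 2 title tags of each group as filled circles and open squares. Polr2j, Leo1 and Supt6 separate the groups in both tags, while the high Hexim1 values, up to 10.5 CPM, belong to the first tag of Dis3 cKO.

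At p20 the loss of either nuclease by itself moved few members. In Dis3 cKO 4 were lower and 0 higher (2 higher at an unadjusted p under 0.05, 1 by DESeq2), beside 3.76% and 3.61% of 15882 genes. In Exosc10 cKO 1 was lower and 0 higher (5 higher at an unadjusted p under 0.05, 1 by DESeq2), beside 3.50% and 3.95%. Polr2j was lower in both, with 47.2, 51.9 and 54.9 CPM in control, 28.2, 38.5 and 52.3 CPM in Dis3 cKO and 25.7, 32.8 and 43.3 CPM in Exosc10 cKO. Only the Exosc10 cKO oocytes lay wholly below control. Polr2j fell by 0.41 (SE 0.12, adjusted p = 0.0263) and by 0.64 (SE 0.12, adjusted p = 0.000389), and these comparisons share the control libraries. The first call was lost without any 1 of its 4 tags, and the second without tag 2 of Exosc10 cKO (−0.46, adjusted p = 0.055). The second was also lost with ERCC scaling, where 0 members were called in Exosc10 cKO, beside 2.29% of all genes. Nelfe fell in Dis3 cKO by 0.42 (SE 0.13, adjusted p = 0.044) from 30.2, 33.2 and 37.3 CPM to 22.1, 23.6 and 32.7 CPM, and Ccnk by 0.37 (SE 0.10, adjusted p = 0.0145) from 82.0, 91.6 and 104 CPM to 62.3, 69.2 and 91.6 CPM, both with overlap. The Nelfe call was lost without any 1 of the 4 tags (adjusted p = 0.142 to 0.3), with no filter and with the replicate block, and the Ccnk call without tag 1 of control or tag 2 of Dis3 cKO (adjusted p up to 0.249). Cdk12 was the fourth, at −0.28, and its call was lost without any 1 tag and with ERCC scaling. Without 1 of the 4 tags concerned the count ran from 0 to 2 in each comparison, beside 2.84% to 4.52% of all genes in Dis3 cKO and 2.21% to 6.02% in Exosc10 cKO. With counts summed per tag 0 were called in either, beside 1.37% and 0.832% of all genes. At an unadjusted p under 0.05 these sums gave 2 higher and 4 lower in Dis3 cKO and 2 and 2 in Exosc10 cKO.

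Loss of both nucleases changed 25 of the 41 members at p20, 11 higher and 14 lower. Since 26.6% of all genes were higher and 27.1% lower, the members' 26.8% and 34.1% were close to the background. In P-TEFb, Cdk9 and Ccnt1 rose while Ccnt2 fell. Cdk13 rose while Cdk12 and their cyclin Ccnk fell, and Nelfb rose while Nelfa fell. In the super elongation complex Aff4 and Ell2 rose while Ell fell. Of the 7SK proteins Hexim1 rose and Larp7 fell. Among Pol II subunits Polr2h, Polr2l and Polr2a rose while Polr2b, Polr2e, Polr2g and Polr2i fell. Supt5, Supt6 and Supt16 fell, and in the PAF1 complex Cdc73 rose and Leo1 fell.

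Hexim1 read 0, 1.11 and 1.97 CPM in control and 1.98, 8.95 and 26.2 CPM in dcKO. The lowest dcKO oocyte lay just above the highest control, and the rise was 3.42 (SE 0.58, adjusted p = 7.99e-06). Tag medians in dcKO were 20.7 and 4.06 CPM, and without the higher tag the rise was 1.98 (adjusted p = 0.0129). Aff4, the scaffold of the super elongation complex, went from 31.2, 36.1 and 95.3 CPM to 84.3, 182 and 231 CPM and rose by 1.89 (SE 0.25, adjusted p = 1.12e-07). It overlapped through 1 control oocyte. Polr2h, a subunit shared by the nuclear polymerases, rose by 1.74 (SE 0.39, adjusted p = 0.000332) from low levels of 0.421, 1.16 and 2.9 CPM to 2.23, 3.99 and 6.66 CPM. Cdk9 rose by 1.71 (SE 0.23, adjusted p = 1.3e-07) from 9.83, 13.8 and 21.1 CPM to 18.3, 42.6 and 74.3 CPM, Nelfb by 1.50 (SE 0.24, adjusted p = 2.68e-06) from 6.7, 12.7 and 17.5 CPM to 17.4, 32.4 and 46.5 CPM, and Cdk13 by 1.16 (SE 0.13, adjusted p = 9.86e-09) from 137, 153 and 177 CPM to 252, 344 and 416 CPM. Cdk13 was separated by every library, while Cdk9 and Nelfb overlapped at the edge. Ell2 rose by 0.96 (SE 0.15, adjusted p = 2.49e-06) without overlap.

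Supt6, whose protein binds histones and the elongating enzyme, read 334, 382 and 432 CPM in control and 154, 241 and 312 CPM in dcKO. No library overlapped, and Supt6 fell by 0.69 (SE 0.10, adjusted p = 7.93e-07). Ccnk fell by 0.68 (SE 0.10, adjusted p = 1.01e-06), from 82.0, 91.6 and 104 CPM to 45.5, 59.5 and 69.3 CPM, again with no overlap. Leo1 fell by 0.65 (SE 0.14, adjusted p = 0.000257), from 69.2, 74.5 and 86.9 CPM to 30.3, 40.0 and 78.2 CPM. Leo1 was lower in tag 1 of dcKO, with a median of 36.3 CPM against 62.1 CPM for tag 2, and without tag 1 the value was −0.33 (adjusted p = 0.0583). Without that tag Polr2e, Polr2a, Ccnt1, Cdc73 and Polr2l were not called either, and 21 members were, beside 36.9% of all genes. With counts summed per tag 20 of the 25 calls remained, 9 higher and 11 lower, beside 16.1% and 15.7% of all genes. The 5 lost were Polr2e, Cdc73, Polr2b, Polr2l and Polr2g. ERCC scaling, with a median of all genes of −0.08, kept 18 of the 25, without Polr2e, Polr2a, Polr2b, Polr2l, Cdc73, Supt16 and Ell. It called 38.2% of all genes. Of the 4 Pol II subunits that fell, Polr2e was called with the replicate block but with no other setting tried, Polr2i was lost without tag 1 of control or tag 2 of dcKO, Polr2g without tag 1 of control, and Polr2b without tag 2 of control. Polr2l, which rose, was also lost without tag 1 of control.

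**Figure D5:**
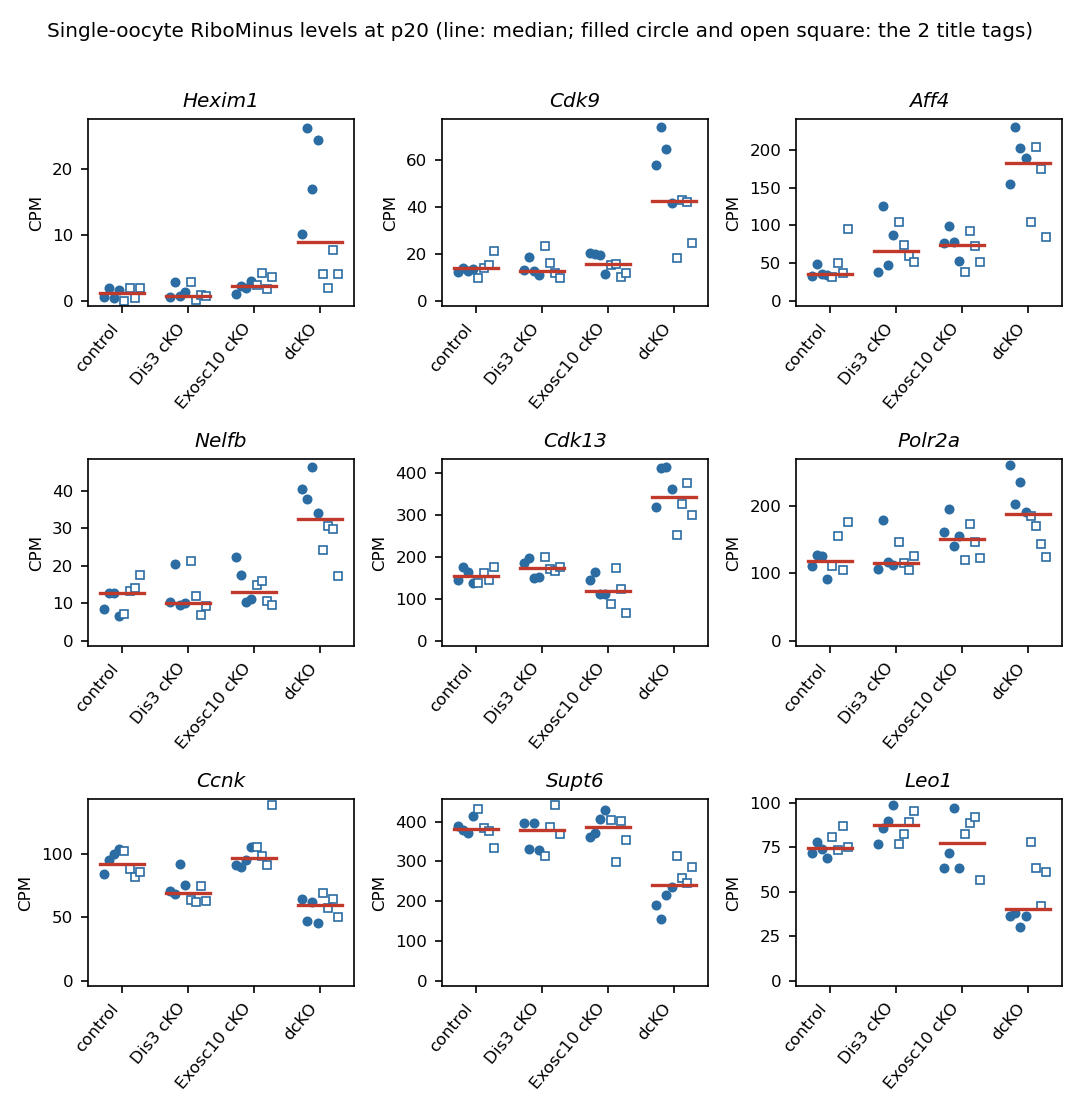
RiboMinus CPM of 9 members in every p20 oocyte of the 4 genotypes (points), with group medians (red lines) and the 2 title tags of each group as filled circles and open squares. Cdk13 and Supt6 in dcKO lie outside all control oocytes, while the Leo1 points of tag 1 lie below those of tag 2 in dcKO.

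The dcKO oocytes were also set against each single knockout. Against Dis3 cKO 11 members were higher and 14 lower, beside 26.0% and 25.5% of all genes, and against Exosc10 cKO 12 and 17, beside 24.2% and 25.0%. Hexim1 read 0.0742, 0.801 and 2.89 CPM in Dis3 cKO and 1.02, 2.29 and 4.27 CPM in Exosc10 cKO, and dcKO was higher by 3.24 (SE 0.58, adjusted p = 2.24e-05) and by 2.26 (SE 0.55, adjusted p = 0.000908). Without tag 1 of dcKO the second of these was 0.81 (adjusted p = 0.345). Cdk9, at 9.59, 12.9 and 23.3 CPM and at 10.0, 15.6 and 20.4 CPM in the single knockouts, was higher in dcKO by 1.67 (SE 0.23, adjusted p = 2.72e-07) and by 1.58 (SE 0.23, adjusted p = 7.13e-07). Each single knockout overlapped dcKO through 1 dcKO oocyte, the lowest. Nelfb was higher than in Dis3 cKO by 1.38 (SE 0.24, adjusted p = 1.19e-05), with 6.99, 10.2 and 21.3 CPM in Dis3 cKO. Polr2l was higher than in Exosc10 cKO by 1.57 (SE 0.61, adjusted p = 0.0325), with 0, 0.759 and 1.97 CPM against 0.825, 2.33 and 3.76 CPM. This call was lost without tag 1 of dcKO (1.21, adjusted p = 0.24), without tag 2 of Exosc10 cKO (1.03, adjusted p = 0.237), with sums per tag, with ERCC scaling and with no filter.

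Leo1 read 76.5, 87.5 and 98.6 CPM in Dis3 cKO and 56.3, 77.1 and 96.8 CPM in Exosc10 cKO, and dcKO was lower by 0.84 (−0.84, SE 0.14, adjusted p = 1.03e-05) and 0.66 (−0.66, SE 0.14, adjusted p = 0.000261). Without tag 1 of dcKO these were −0.52 (adjusted p = 0.00408) and −0.34 (adjusted p = 0.0523). Larp7, at 38.4, 56.7 and 70.8 CPM and at 40.0, 52.8 and 65.2 CPM in the single knockouts and at 18.9, 32.7 and 47.0 CPM in dcKO, was at −0.78 (SE 0.13, adjusted p = 8.76e-06) and −0.69 (SE 0.13, adjusted p = 5.59e-05). Supt6 was lower than in Dis3 cKO (−0.64, SE 0.10, adjusted p = 3.49e-06) with no overlap of 313, 378 and 442 CPM and the dcKO range. Ccnk was lower than in Exosc10 cKO (−0.81, SE 0.10, adjusted p = 7.14e-08), where it read 89.7, 96.5 and 138 CPM. Polr2j, lower in each single knockout, was at 45.5, 59.0 and 67.5 CPM in dcKO, higher than in Dis3 cKO by 0.60 and than in Exosc10 cKO by 0.83. With ERCC scaling, which moved the median of all genes to 0.26 against Dis3 cKO, 13 members were higher than in Dis3 cKO and 0 lower (2 at an unadjusted p under 0.05), beside 27% and 9.92% of all genes. Cdk12, Polr2b and Supt16 turned, while 9 were higher and 10 lower than in Exosc10 cKO, beside 14.6% and 17%. With counts summed per tag 14 and 18 members were called, beside 28.5% and 26.6% of all genes. The members called without 1 tag ran from 16 to 22 against Dis3 cKO and from 21 to 26 against Exosc10 cKO. Of all genes 32.6% to 48.3% and 31.9% to 46.5% were called in these fits.

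Adult and p20 control oocytes differed for 11 members, 8 higher and 3 lower in adult, beside 8.69% and 10.4% of 17267 genes (19.5% and 7.32% of members). Age and collection cannot be told apart here. Nelfa (0.47, SE 0.11, adjusted p = 0.00178), Polr2c (0.42, SE 0.10, adjusted p = 0.00203) and Ccnk (0.41, SE 0.10, adjusted p = 0.00193) were the higher members of largest change. Nelfa read 141, 176 and 219 CPM at p20 and 194, 244 and 282 CPM in adult, Polr2c 29.3, 32.1 and 41.2 CPM and 40.0, 44.0 and 51.8 CPM, and Ccnk 82.0, 91.6 and 104 CPM and 105, 122 and 138 CPM. Ccnk alone of the 3 did not overlap. Hexim1 (−1.92, SE 0.65, adjusted p = 0.03), Polr2a (−0.51, SE 0.13, adjusted p = 0.0042) and Cdk12 (−0.28, SE 0.08, adjusted p = 0.00911) were lower. The groups overlapped for all 3, and the Hexim1 call was lost without any 1 tag. Polr2a was lost without AM1758 or tag 2 of p20 control, and Cdk12 without any 1 tag other than AM1758. Cdk12 was at 469, 580 and 651 CPM at p20 and 437, 465 and 534 CPM in adult. The other higher members were Polr2d, Supt5, Rtf1, Paf1 and Ell. Of the higher calls, those of Polr2d and Supt5 were lost without any 1 tag. Those of Polr2c and Ell were lost without AM1759 or tag 2 of p20 control. Without tag 2 of p20 control 1 call was left, beside 8.11% of all genes. With counts summed per tag 0 were (9 higher and 3 lower at an unadjusted p under 0.05), beside 1.04% of all genes. With ERCC scaling the median of all genes was −1.69 and 41 of 41 members were lower in adult, beside 85.7% of all genes, so the 8 higher calls turned.

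Between adult and p20, 4 members differed in their response to Dis3 loss, 3 more positive in adult and 1 more negative, beside 5.34% and 3.98% of all genes. For Hexim1 the difference was 3.10 (SE 0.89, adjusted p = 0.0177), for Nelfe 0.64 (SE 0.17, adjusted p = 0.0087), for Cdk12 0.37 (SE 0.11, adjusted p = 0.0241) and for Leo1 −0.81 (SE 0.18, adjusted p = 0.00232). Nelfe read 36.5, 41.6 and 47.0 CPM in adult control and 41.0, 46.9 and 64.1 CPM in adult Dis3 cKO, and Cdk12 437, 465 and 534 CPM and 429, 495 and 607 CPM. At p20 Cdk12 in Dis3 cKO was at 396, 468 and 528 CPM. Leo1 stood lower in Dis3 cKO in adult, with 84.5 and 54.1 CPM at the medians against 74.5 and 87.5 CPM at p20. Counts summed per tag and ERCC scaling each gave 0 calls, beside 0.307% and 3.38% of all genes. At an unadjusted p under 0.05 they gave 2 positive and 1 negative, and 1 and 4. DESeq2 gave 3 and 1, beside 6.41% and 3.7% of all genes. Without 1 tag 1 to 8 were called, beside 3.39% to 16.4% of all genes. Of these 8 fits the Hexim1 call was lost in 6, the Leo1 call without AM1713 and the Nelfe call without tag 2 of p20 Dis3 cKO. Cdk12 was lost in 5.

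Polr2a, the catalytic subunit, was low in poly(A) libraries and higher in RiboMinus libraries, which are separate protocols. In poly(A) it read 11.1, 20.2 and 24.7 CPM in GV control, 18.0, 27.9 and 33.8 in GV Dis3 cKO, 14.1, 23.7 and 32.1 in GV3h control and 15.7, 31.1 and 57.6 in GV3h Dis3 cKO. MII control eggs were at 15.5, 28.0 and 34.9 CPM and MII Dis3 cKO eggs at 12.1, 32.8 and 53.9 CPM. All 6 groups overlapped. The Dis3 cKO values were 0.48 at GV (SE 0.19, adjusted p = 0.0527), 0.47 at GV3h (SE 0.18, adjusted p = 0.0325) and 0.34 at MII (SE 0.18, adjusted p = 0.125), so 1 of 3 passed; without MII library 15 the GV value passed as well (adjusted p = 0.0323). The GV3h call was lost with ERCC scaling, with no filter, with title numbers 1 to 8 and with the replicate block on those numbers. Between GV3h and GV they were 0.30 in control (SE 0.21, adjusted p = 0.516) and 0.29 in Dis3 cKO (SE 0.15, adjusted p = 0.164). From GV to MII Polr2a rose by 0.50 in control (SE 0.21, adjusted p = 0.0323) and 0.36 in Dis3 cKO (SE 0.15, adjusted p = 0.0282), and both turned with ERCC scaling, to −1.35 and −0.83. The Dis3 effect did not pass as different at GV3h (−0.0067, SE 0.25, adjusted p = 0.998) or at MII (−0.14, SE 0.26, adjusted p = 0.773).

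In RiboMinus libraries Polr2a read 69.1, 90.7 and 104 CPM in adult control and 76.6, 92.8 and 113 CPM in adult Dis3 cKO, a difference of 0.09 (SE 0.10, adjusted p = 0.543). At p20 it was at 91.7, 118 and 176 CPM in control, 105, 116 and 179 in Dis3 cKO, 120, 152 and 195 in Exosc10 cKO and 125, 188 and 261 in dcKO. These 4 groups overlapped, with dcKO the highest at its median. The differences from control were 0.0094 in Dis3 cKO (SE 0.14, adjusted p = 0.983), 0.28 in Exosc10 cKO (SE 0.14, adjusted p = 0.253) and 0.61 in dcKO (SE 0.14, adjusted p = 0.000427). Polr2a in dcKO was also above Dis3 cKO by 0.60 (SE 0.14, adjusted p = 0.000589) and above Exosc10 cKO by 0.33 (SE 0.14, adjusted p = 0.0488). Without tag 1 of dcKO these 3 were 0.31 (adjusted p = 0.115), 0.30 (adjusted p = 0.134) and 0.02 (adjusted p = 0.924), none of which passed. With ERCC scaling the difference from control was 0.47 (adjusted p = 0.0981) and that from Exosc10 cKO 0.21 (adjusted p = 0.499), so neither passed. The call against Exosc10 cKO was also lost with no filter, with counts summed per tag and without tag 2 of Exosc10 cKO. Its Dis3 effect did not pass as different between adult and p20 (0.06, SE 0.18, adjusted p = 0.893).

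A further 79 transcription genes outside the 41, in general factors, Mediator, Pol II assembly with C-terminal domain phosphatases, and further elongation and termination factors, were counted alongside. In dcKO 24 of the 78 tested were higher and 23 lower, with a median of −0.08, where 26.6% and 27.1% of all genes were called. In MII Dis3 cKO eggs 19 of 79 were higher and 10 lower, with a median of 0.14, beside 27.3% and 14.8% of all genes. From GV to MII in control 27 of 79 rose and 31 fell, beside 22.7% and 35.8%. Med29 fell by 4.71 (SE 0.41, adjusted p = 1.25e-16) and Med9 by 3.10 (SE 0.27, adjusted p = 2.69e-16), while Med30 rose by 1.57 (SE 0.15, adjusted p = 4.8e-15); these are subunits of Mediator, which bridges activators and Pol II. In MII Dis3 cKO eggs Polr2m, a Pol II-associated protein, rose by 1.32 (SE 0.29, adjusted p = 0.000177) and Gpn3, which helps to bring Pol II into the nucleus, by 1.26 (SE 0.28, adjusted p = 0.00015), while Med16 fell by 1.61 (SE 0.29, adjusted p = 6.31e-06). In GV Dis3 cKO oocytes Hexim2, the paralog of Hexim1, fell by 0.76 (SE 0.15, adjusted p = 5.38e-05). In single knockouts at p20 few of the 78 tested changed, with 2 higher and 1 lower in Dis3 cKO and 1 higher and 2 lower in Exosc10 cKO, where 3.50% to 3.95% of all genes were called in each direction of these 2 comparisons.

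Pol II CUT&Tag peaks lay within 1000 bases of the start of few members. The numbers were 2, 1 and 1 of 34 in the adult control libraries, 3, 7 and 7 in p20 control and 7, 4 and 6 in adult Dis3 cKO. The authors called peaks per library, and the lists held from 19697 to 122606 peaks, and the share of 27025 genes with a peak there moved with the lists. It was 2.88%, 5.31% and 4.04% in adult control, 8.98%, 10.8% and 9.87% in p20 control and 10.4%, 4.57% and 14.6% in adult Dis3 cKO. These 27025 genes were not limited to expressed ones. Adult Dis3 cKO exceeded adult control by 4.33 members on average, and p20 control exceeded adult control by the same 4.33; the exact permutation p of 0.1 in each (two-sided) is the smallest that 3 against 3 libraries allow. With the 19697 peaks of highest signal from every list the numbers were 2, 1 and 1, then 2, 5 and 2, and then 4, 4 and 2, where 2.88% to 3.87% of all genes had a peak. Nelfb had a peak in 9 of 9 libraries; a small nuclear RNA gene, Gm22572, overlaps it. Polr2c had a peak in 3 of 3 adult Dis3 cKO libraries and in 0 of the 6 others. Polr2j and Ell each had one in 3 of 3 p20 control and 2 of 3 adult Dis3 cKO libraries and in 0 of 3 adult control libraries.

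In the annotation 20 of the 41 members overlap another gene, among them Polr2b, Polr2c, Polr2i, Polr2k, Supt6, Supt16, Ccnk, Nelfa, Nelfb, Larp7, Cdc73, Leo1, Aff4 and Cdk13. The labels do not state whether strand was used in counting, so for these members reads from the partner gene could not be told apart. Hexim1, Polr2l, Polr2j, Cdk9, Polr2h and Ccnt2 have no such partner in the table. Polr2l, Polr2h, Hexim1 and Polr2k had medians under 20 CPM in every group, and their fold changes rest on few counts per oocyte.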

How the data were processed

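Single-oocyte RNA was counted per gene by the authors, and the deposited values are raw counts. The submitters' processing notes name mm10, cutadapt 2.5, FastQC 0.11.8, STAR 2.7.2a, SAMtools 1.9, HTSeq 0.9.1, R 3.5.1, DESeq2 1.24.0 and SEACR, with no role or order; the strand setting and annotation release are not given in the sources used here. CUT&Tag peaks were deposited with the authors' signal per peak, and their libraries were sampled to a fixed number of reads per the labels' protocols.

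From these files, counts were tested with edgeR 4.0.16 in R 4.3.3 (TMM, filterByExpr, quasi-likelihood F test, Benjamini-Hochberg over all genes tested, threshold 0.05); SE is the log2 fold change divided by the root of F. A single fit held all poly(A) groups, another the adult pair and another the p20 groups, and comparisons of adult with p20 used all 6 RiboMinus groups. RiboMinus CPM come from the 6-group fit, fold changes of adult and p20 from their own fits. Overlap of group ranges was read for members only, with no share over all genes. Scripts were tested on simulated data. The comparison of equal numbers of peaks was added after the data were seen. DESeq2 1.42.0, its size factors, ERCC scaling, no filter, only the groups compared, a replicate block, sums per tag and left-out libraries or tags were alternatives. Named members are the 3 called of largest change in each direction per comparison, with Polr2a; others named are given with counts or were chosen after their values were seen. The members and lists were chosen with earlier results of these data known. The samples hold no GV Dis3 cKO library numbered 9. IgG was not analysed here, and H3K27me3 was not used.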

Additional observations from a re-analysis of the deposited data

Results flagged for a closer look

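Of 270 combinations of a member and a group of 4 to 10 libraries, over 30 members, 21 had 1 library apart from the others by Dixon's test, which chance alone does in about 1 in 20. In poly(A) GV control these were Hexim1 at 0.9265 CPM and Aff4 at 34.28 CPM in library 2, and Ccnk at 73.13 CPM and Ccnh at 63.78 CPM in library 1. Supt6 stood at 211.4 CPM in GV3h control library 8. In MII control Hexim1 was at 1.166 CPM in library 3, Polr2l at 2.46 CPM in library 4 and Polr2k at 3.353 CPM in library 1.

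In adult Dis3 cKO the first library of tag AM1713 stood apart for Hexim1 (10.54 CPM), Ell2 (72.44 CPM) and Supt6 (251.1 CPM), and the fourth of AM1757 for Polr2f (22.12 CPM) and Nelfe (64.14 CPM). At p20 the fourth control library of tag 2 stood apart for Aff4 (95.29 CPM) and Polr2h (2.905 CPM). In p20 Dis3 cKO, Ccnk read 91.61 CPM, Ccnt2 361.3 CPM and Nelfe 32.69 CPM in 3 separate libraries. In p20 Exosc10 cKO, Ccnk at 138.4 CPM and Polr2e at 36.83 CPM shared a library, and Ccnt2 stood at 366.5 CPM in another.

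The effect of Dis3 loss differed between settings by the edgeR test of the difference for 14 values. From GV to GV3h this was Ccnt2 (log2 difference −0.50). At MII against GV these were Polr2l (2.36), Polr2j (1.50), Polr2f (0.93), Polr2d (0.88), Leo1 (0.80), Polr2g (0.77), Polr2i (0.64), Nelfa (0.52) and Mnat1 (−0.70). Between adult and p20 these were Hexim1 (3.10), Nelfe (0.64), Cdk12 (0.37) and Leo1 (−0.81).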

How the results depend on the processing

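Of the counts of called members and the peak results, 120 recomputed values stayed within 1.5 times or kept their direction and 53 moved; of the log2 fold changes of named members, 673 kept their direction and side of the threshold, 116 lost the call, 6 gained it and 14 turned. The causes were not tested. With ERCC scaling the members called were 12 in GV Dis3 cKO against control, 11 at GV3h, 19 for GV3h against GV in Dis3 cKO, 19 for the difference of the Dis3 effect between MII and GV, 21 in adult Dis3 cKO, 0 in p20 Exosc10 cKO, 13 and 19 for dcKO against Dis3 cKO and Exosc10 cKO, 41 for adult against p20 and 0 for the Dis3 effect between them. Of all genes this scaling called 20.6%, 28.2%, 37%, 30.1%, 44.6%, 2.29%, 36.9%, 31.6%, 86.1% and 3.38%, in the same order. ERCC scaling turned, from GV to MII, Polr2c (−0.38), Larp7 (−0.91), Rtf1 (−0.91) and Polr2a (−1.35) in control and Polr2c (−0.17), Polr2f (−0.37) and Polr2a (−0.83) in Dis3 cKO, Mnat1 in the difference between them (0.014), and Nelfa (−1.22), Polr2c (−1.27) and Ccnk (−1.28) for adult against p20. DESeq2 called 11 at GV, 2 for the Dis3 effect between GV3h and GV and 2 in Exosc10 cKO. Beside these it called 21%, 3% and 8.28% of all genes. Fits of only the groups compared called 12 at GV, 29 at GV3h, 10 and 18 for GV3h against GV in control and Dis3 cKO, and 3 for the difference between them. Of all genes these fits called 27.3%, 54.6%, 15.1%, 29.6% and 5.02%, in the same order.

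Counts summed per tag called 0 members in adult Dis3 cKO (0% of all genes), p20 Dis3 cKO (1.37%), p20 Exosc10 cKO (0.832%), adult against p20 (1.04%) and the Dis3 effect between them (0.307%). With such small shares these 0 counts say nothing particular to the members. The sums called 14 and 18 for dcKO against Dis3 cKO and Exosc10 cKO, beside 28.5% and 26.6% of all genes. Leaving out 1 tag gave 5 to 13 called members in adult, 0 to 2 in p20 Dis3 cKO, 0 to 2 in Exosc10 cKO, 16 to 22 for dcKO against Dis3 cKO, 1 to 8 for adult against p20 and 1 to 8 for the Dis3 effect between them. In the same order these fits called 13.7% to 37.4%, 2.84% to 4.52% and 2.21% to 6.02% of all genes. For the last 3 comparisons the shares were 32.6% to 48.3%, 8.11% to 10.1% and 3.39% to 16.4%. Without MII library 15, GV3h against GV in control had 3 calls and the Dis3 effect between GV3h and GV 2, and Supt4a at MII turned to −0.26. Of all genes 3.92% and 2.98% were called in the first 2 of these fits.

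Same-numbered poly(A) libraries correlated by −0.226 to 0.274 in their deviations (median 0.024, 25 of 142 pairs over 0.1) and same-numbered p20 libraries by −0.434 to 0.551 (median 0.0476, 12 of 48 pairs), so the numbers were not taken to pair samples. With the replicate block on title numbers 1 to 8, GV3h against GV in control had 2 calls and the Dis3 effect between GV3h and GV 0, as did these numbers without the block (2 and 0), and Supt4a at MII was −0.22 in both. Of all genes 3.64% and 2.4% were called in these 2 comparisons with the block, and 4.1% and 2.8% without it. With the replicate block at p20, 3 members were called in Dis3 cKO, 1 in Exosc10 cKO and 25 in dcKO. Beside these 7.2%, 6.96% and 53% of all genes were called. Tags differ between the adult groups, so no block was fitted there. Low counts limit Hexim1, Polr2l, Polr2h and Polr2k.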
